A study of Homo sapiens with 12 samples.

Results

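The genes described here make ribosomes: 56 genes of RNA polymerase I and of ribosome biogenesis, chosen by their known roles and found by symbol among the 60106 genes of the count tables. The choice was made with earlier results of these data known. All 56 were present once in each table. They were sorted by role into RNA polymerase I and its factors (7 genes), the proteins of the small nucleolar ribonucleoproteins (8), abundant nucleolar proteins (3), the pathway that assembles the small, or 40S, subunit (21) and the pathway that assembles the large, or 60S, subunit (17). They were compared between prostate cancer cells given an siRNA against FOXA1 and cells given a non-targeting siRNA. In PC3 cells 42 of the 56 fell (75.0%, against 13.9% of all genes tested) and 0 rose. In VCaP cells 19 fell (33.9%, against 23.3% of all genes tested and 35.3% of protein-coding genes of at least 10 CPM) and 1 rose.

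Ribosomes are built in the nucleolus. RNA polymerase I (Pol I) transcribes a long precursor of the ribosomal RNAs, small nucleolar ribonucleoproteins (snoRNPs) guide its methylation and pseudouridylation, and a succession of assembly factors, helicases and nucleases folds and cuts it while ribosomal proteins bind. The pathway takes a large share of the resources of a growing cell, many of its genes are known targets of the transcription factor MYC, and enlarged nucleoli are a classical feature of prostate cancer cells. FOXA1 is a forkhead transcription factor that opens chromatin in the prostate epithelium.

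RNA was sequenced from 12 libraries of the human prostate cancer lines PC3 and VCaP, with 3 libraries of each siRNA in each line and 72 hours between transfection and lysis. Both lines are established from metastases. PC3 cells received 20 nM of non-targeting siRNA (NSI) or of siRNA against FOXA1 (siFOXA1) in RPMI-1640 and were sequenced with an mRNA kit, and VCaP cells received 40 nM of the same in DMEM and were sequenced with a total RNA kit. The line therefore cannot be told apart from dose, medium, kit and the counting rule, which ignored strand in PC3 and used it in VCaP. No label says that replicates are separate cultures, so p-values measure the spread between these libraries, which may be technical.

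The libraries held 123140099 to 188226483 counts in PC3 and 48187047 to 59839211 in VCaP. FOXA1 was measured at 303, 244 and 266 counts scaled to a common library size (CPM) in the PC3 NSI libraries and at 163, 182 and 162 in siFOXA1, and at 458, 468 and 544 in VCaP NSI and 85.2, 73.6 and 83.0 in siFOXA1. Mean FOXA1 was thus 62.3% of NSI in PC3 and 16.5% in VCaP, with no overlap between groups and an exact permutation p of 0.1 in each line, two-sided, which is the smallest that 3 against 3 libraries allow. The epithelial markers KRT8, KRT18, EPCAM and CDH1 were above 1 CPM in each group of both lines. The leukocyte markers PTPRC and CD3E were at or near 0 in both lines. CD68, a macrophage marker, was at 29.1, 26.3 and 29.6 CPM in PC3 NSI and at 43.8, 45.1 and 49.3 in siFOXA1. In VCaP the endothelial marker VWF was at 4.43, 4.54 and 3.93 CPM in NSI and at 2.02, 1.95 and 1.68 in siFOXA1. CDH5, another endothelial marker, was at or near 0 there. The part of these in the results was not tested, and PECAM1 was not analysed here.

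In PC3, ribosome biogenesis genes of every role fell after siFOXA1. The 42 called members are 75.0% of the set, against 13.9% of all 26478 genes tested that were called lower and 20.9% of the 9570 protein-coding genes averaging 10 CPM or more, here called well-expressed. A call is an adjusted p under 0.05 in edgeR's quasi-likelihood test with Benjamini-Hochberg adjustment over all genes tested. No member was called higher by edgeR or by DESeq2, while edgeR called 13.9% of all genes tested and 10.9% of the well-expressed ones higher. At an unadjusted p under 0.05, 0 members were higher. The log2 fold change was below 0 for 55 of 56 members, against 51.1% of all genes tested and 64.0% of the well-expressed ones. Its median was -0.42 over the members and -0.01 over all genes tested (-0.11 over the well-expressed protein-coding genes). In 47 members the highest siFOXA1 library was lower than the lowest NSI library, which held for 22.7% of all genes tested, and in 0 members the order was the opposite (22.4% of all genes tested). The members together made up 0.693% to 0.731% of the counts in NSI and 0.562% to 0.578% in siFOXA1. Less RNA per cell and fewer cells of a kind cannot be told apart in such bulk libraries.

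The size of the PC3 count rested on 3 of the 6 libraries. It was 17 without siFOXA1 replicate 1 (background 5.64%), 25 without siFOXA1 replicate 3 (8.94%) and 26 without NSI replicate 3 (8.08%), while the number of members with a negative fold change was 55 or 56 in each of these. With the replicate number as a block, the count was 52 (23.1% of all genes tested were then called lower, and 19.7% higher). The PC3 libraries bear out that pairing for replicate 2 alone. Deviations of siFOXA1 replicate 3 went more with those of NSI replicate 1 (r = 0.35) than of NSI replicate 3 (r = 0.21).

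**Figure D1:**
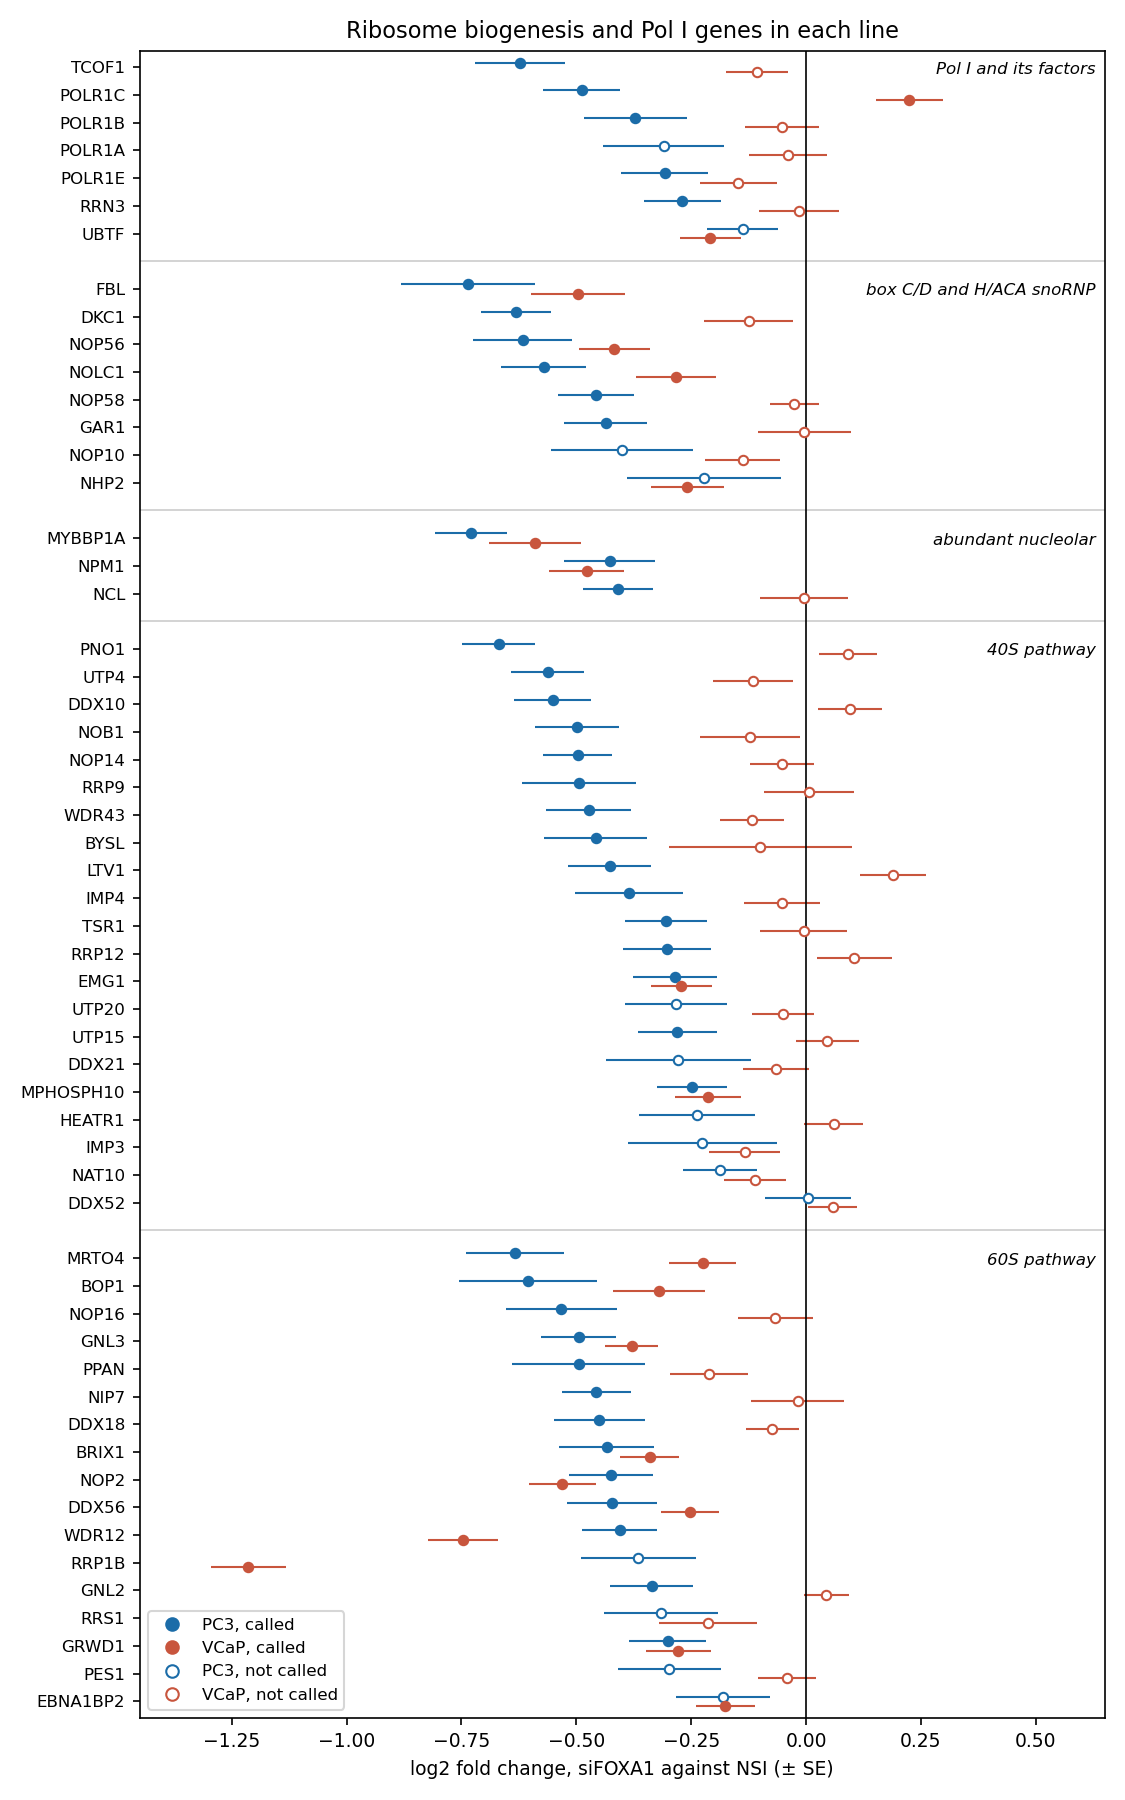
The log2 fold change of each of the 56 members after siFOXA1, with its standard error, in PC3 (blue) and VCaP (red), grouped by role and ordered by the PC3 value. Filled points were called (adjusted p under 0.05). The PC3 points lie left of 0 for 55 members, while the VCaP points lie closer to 0 for most, with RRP1B and WDR12 furthest to the left and POLR1C called on the right.

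In VCaP a minority of members was called. The 19 members called lower are 33.9% of the set, against 23.3% of the 22939 genes tested and 35.3% of the 9040 well-expressed protein-coding genes, so the count of falls is near the background of genes of like level. The 1 member called higher was POLR1C, where 22.5% of all genes tested and 23.7% of the well-expressed ones were called higher. The log2 fold change was below 0 for 46 of 56 members, against 47.8% of all genes tested and 56.5% of the well-expressed ones. Without NSI replicate 3 it was below 0 for 34 members. The median log2 fold change of the members was -0.11, and over all genes tested it was 0.02 (-0.06 over the well-expressed protein-coding genes). Without overlap between the groups, siFOXA1 was lower in 20 members (28% of all genes tested) and higher in 4 (27.9%), which were POLR1C, DDX52, LTV1 and GNL2. The members made up 0.374% to 0.3999% of the counts in NSI and 0.332% to 0.338% in siFOXA1.

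Some features of the VCaP libraries moved with these values. NSI replicate 3 was the highest of the 3 NSI libraries in 46 of 56 members, and without it 14 members were called lower. Leaving out other libraries gave 13 without siFOXA1 replicate 1 or 2 and 17 to 20 for the rest. Calls over all genes dropped too. With all 6 libraries 5345 genes were called lower, and 4956 were without NSI replicate 3. Without siFOXA1 replicate 1 or 2 they numbered 4723 and 4399. Mitochondrial genes took 3.02% to 3.29% of the counts in NSI and 4.04% to 4.69% in siFOXA1, and with those genes left out the count of members called lower was 19. In the fit that pooled all 12 libraries the VCaP count was 11, where 3975 genes in all were called lower. With the replicate block it was 20 lower (24.8% of all genes tested) and 1 higher (25.2%).

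**Figure D2:**
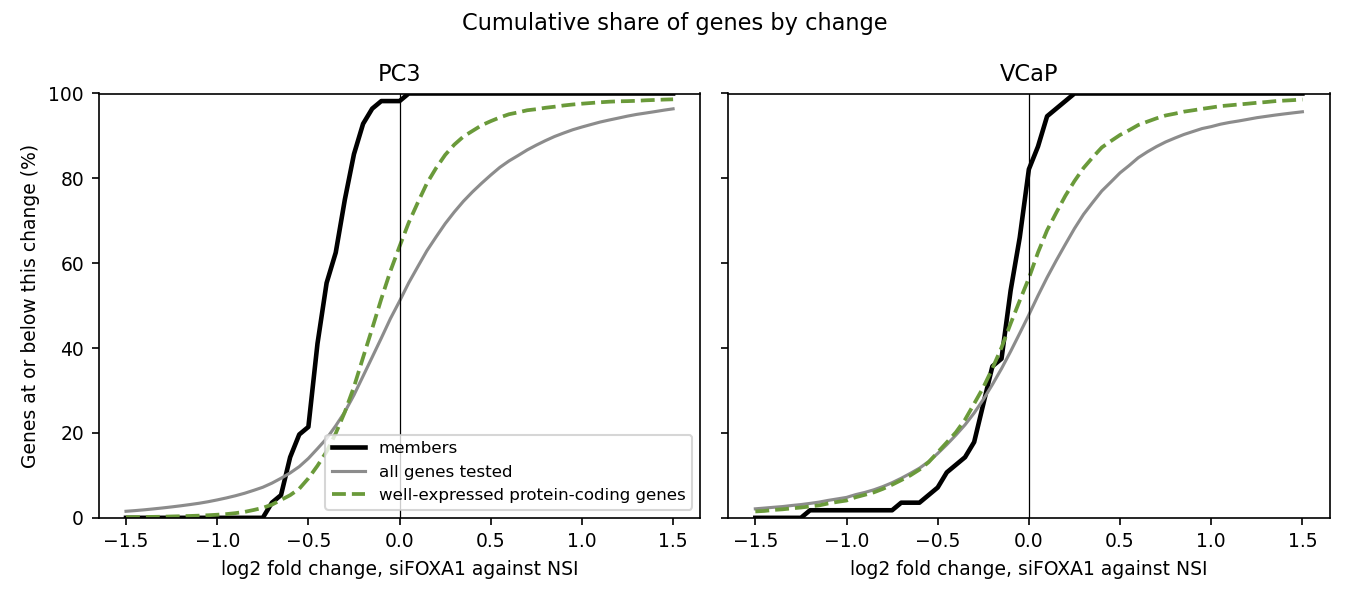
Cumulative percentage of genes at or below each log2 fold change (x axis) in PC3 (left) and VCaP (right), for the 56 members (black), all genes tested (grey) and the well-expressed protein-coding genes (green dashes). In PC3 the black curve lies to the left, with a median of -0.42 against -0.01 and -0.11. In VCaP it crosses the others, with a median of -0.11 against 0.02 and -0.06.

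The promoters of the members were read first for letters that they share. RefSeq promoters on GRCh38.p14, from 250 bases before to 50 after the first listed start, were matched for 45 of the 56 genes. The palindrome CACGTG, the E-box bound by MYC and related factors, was in 18 of these 45 (40.0%), against 7.43% of 27305 promoters in the table and 8.88% of 15843 protein-coding ones. Within the 250 bases before the start alone it was in 6 of 45 (13.3%, against 6.49% and 7.84%). In 17 of the 18 a match began between 16 bases before and 50 after the start, and in 11 each match lay after the start. The windows below hold the E-box nearest the start in capitals, for genes whose values in each library are given further on; bases count from 1 at the start.
MYBBP1A, chr17:4555340-4555369, minus strand, E-box from base 28: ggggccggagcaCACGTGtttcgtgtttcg
PNO1, chr2:68157885-68157914, plus strand, E-box from base 10: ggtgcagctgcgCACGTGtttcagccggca
FBL, chr19:39846356-39846385, minus strand, E-box from base 7: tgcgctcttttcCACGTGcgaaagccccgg
LTV1, chr6:143843354-143843383, plus strand, E-box from base 29: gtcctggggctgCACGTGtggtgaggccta
NOP2, chr12:6568242-6568271, minus strand, E-box from base 36: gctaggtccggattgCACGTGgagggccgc
BYSL, chr6:41921515-41921544, plus strand, E-box from base 29: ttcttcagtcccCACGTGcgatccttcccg
UTP4, chr16:69132621-69132650, plus strand, E-box from base -16: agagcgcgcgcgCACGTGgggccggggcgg
NOP10, chr15:34343130-34343159, minus strand, E-box from base -11: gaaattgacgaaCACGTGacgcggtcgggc

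A match is a description of letters and not a bound site. In PC3, 13 of 18 with it were called lower, with a median log2 fold change of -0.44, as were 21 of 27 without it, with a median of -0.41. In VCaP the numbers were 5 of 18 (median -0.11) and 10 of 27 (median -0.12). No test was made of the difference. Among the other motifs searched on both strands, the palindromic core of the site of nuclear respiratory factor NRF1, CGCATGCG, was in 4 of 45 (8.89%, against 2.19% of all promoters and 2.88% of protein-coding ones), and its 4 holders, MYBBP1A, DKC1, DDX10 and NOB1, were called lower in PC3, as 75.0% of all members were, and 1 of the 4 in VCaP. The ETS motif CCGGAAGT was in 22.2% of the members (4.44% of all, 6.19% of protein-coding), the YY1 motif AAGATGGC in 13.3% (3.03% and 3.91%) but 4.44% within the 250 bases before the start (1.37% and 1.39%), and a forkhead core, TGTTTAC, in 2.22% (3.41% and 2.61%). These motifs do not contain each other. The median GC content of the members' promoters was 63.0%, beside 62.7% for protein-coding promoters and 58.3% for all. The NRF1 core nearest the start is in capitals below for the 3 holders whose values are given by library.
MYBBP1A, chr17:4555383-4555412, minus strand, from base -17: acaaaccggtgCGCATGCGccgtgccctga
DDX10, chr11:108665043-108665072, plus strand, from base -15: ttctgagttcgCGCATGCGcctctgtgcgt
DKC1, chrX:154762709-154762738, plus strand, from base -144: gaggctcgaagCGCATGCGcggtctcgccc

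MYC itself was measured at 829, 844 and 880 CPM in PC3 NSI and at 343, 388 and 365 in PC3 siFOXA1. It was thus at 42.9% of NSI, with no overlap (log2 fold change -1.22 ± 0.09 SE, adjusted p = 3.42e-05). VCaP had it at 235, 227 and 304 CPM in NSI and at 216, 249 and 262 in siFOXA1, with overlapping groups (-0.07 ± 0.12, adjusted p = 0.643). The difference between the lines was 1.13 ± 0.16 (adjusted p = 0.000125). The part of MYC in the members' fall was not tested.

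Pol I and its factors were mostly lower in PC3. There 5 of the 7 were called lower, with a median log2 fold change of -0.31. That is 71.4%, against 13.9% of all genes tested and 20.9% of well-expressed ones. In VCaP 1 was (14.3%, against 23.3% and 35.3%), with a median of -0.05. TCOF1, or treacle, a nucleolar scaffold for rDNA transcription, fell most in PC3 (-0.62 ± 0.10, adjusted p = 0.00238). POLR1B, the second largest subunit (-0.37), POLR1E, a Pol I-specific subunit (-0.31), and RRN3, the factor that readies Pol I for initiation (-0.27), were called with adjusted p between 0.0385 and 0.0419. Their calls held under 7, 4 and 4 of 15 alternative settings and were lost without any 1 of at least 5 of the 6 libraries, NSI replicate 2 being the exception for POLR1B and RRN3. POLR1A, the largest subunit, stood at -0.31 (adjusted p = 0.113, and 0.00373 with the replicate block). UBTF, which binds and opens the rDNA repeats, stood at -0.14 in PC3 (adjusted p = 0.219) and was the 1 of these 7 called lower in VCaP (-0.21, adjusted p = 0.0280, ended by leaving out NSI replicate 3, or replicate 1 or 2 of siFOXA1). The other 5 in VCaP, POLR1C aside, ranged from -0.15 to -0.02 and were not called. Of 15 further genes of Pol I subunits, its selectivity factor SL1 and termination, 6 were called lower in PC3 (40.0%) and 6 in VCaP (40.0%). The VCaP share is near the 35.3% of well-expressed genes. POLR1D (-0.46 and -0.25) and CD3EAP (-0.27 and -0.39) were among them in both lines.

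POLR1C, a subunit shared by Pol I and RNA polymerase III, was the member that was called in opposite directions (chr6:43477709-43530156, plus strand, GRCh37). In PC3 its libraries held 37.2, 40.8 and 38.0 CPM with NSI and 26.1, 28.7 and 27.8 with siFOXA1. In VCaP they held 27.4, 24.7 and 26.2 with NSI and 28.1, 30.8 and 32.6 with siFOXA1. Each siFOXA1 library was thus below all NSI libraries in PC3 and above all of them in VCaP. The log2 fold changes were -0.49 ± 0.08 (adjusted p = 0.00378) and 0.22 ± 0.07 (adjusted p = 0.0307). The VCaP call held under 9 of 15 alternatives, and leaving out replicate 2 or 3 of either group ended it (adjusted p up to 0.107). The difference between the lines, 0.70 ± 0.11 (adjusted p = 0.000385), was called under all 20 alternatives. The 150 bases before its start hold no E-box and 1 ETS motif, in capitals on the reverse complement, and are set beside those of WDR12, which hold neither. WDR12 is 1 of the 2 members whose difference was called in the other direction, and RRP1B, the other, was not matched to a promoter.
POLR1C, chr6:43516939-43517088, plus strand, GRCh38.p14: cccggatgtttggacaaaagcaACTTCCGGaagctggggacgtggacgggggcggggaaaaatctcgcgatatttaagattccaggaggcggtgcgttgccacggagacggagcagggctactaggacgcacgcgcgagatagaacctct
WDR12, chr2:202911674-202911823, minus strand, GRCh38.p14: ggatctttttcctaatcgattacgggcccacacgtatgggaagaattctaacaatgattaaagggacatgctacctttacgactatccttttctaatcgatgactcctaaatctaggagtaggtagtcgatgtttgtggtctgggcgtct

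The snoRNP proteins fell in PC3 with a median of -0.51, and 6 of 8 were called. In VCaP 4 of 8 were called lower, with a median of -0.20. The background shares called lower in PC3 were 13.9% of all genes tested and 20.9% of well-expressed ones. In VCaP they were 23.3% and 35.3%. Whether 4 of 8 exceeds the VCaP shares was not tested. The box C/D particles, which guide methylation of ribosomal RNA, hold FBL, NOP56 and NOP58. FBL, the methyltransferase fibrillarin (chr19:40325098-40337054, minus strand, GRCh37), was at 92.9, 133 and 105 CPM in PC3 NSI and at 60.2, 75.2 and 63.2 in siFOXA1. In VCaP it was at 58.3, 56.5 and 69.5 in NSI and at 39.0, 42.6 and 49.2 in siFOXA1. The groups did not overlap in either line, and FBL fell to 60.1% and 70.9% of NSI (-0.74 ± 0.15, adjusted p = 0.00697, and -0.50 ± 0.10, adjusted p = 0.00332). Without siFOXA1 replicate 1 its PC3 fall missed the threshold (adjusted p = 0.0523). NOP56, a core scaffold of the same particle, was lower in both lines (-0.62 and -0.42), while NOP58, its partner, was lower in PC3 (-0.46 ± 0.08, adjusted p = 0.00456) and stood at -0.03 ± 0.05 in VCaP. The difference between lines was called for NOP58 (0.42 ± 0.11, adjusted p = 0.0107, and 0.0509 to 0.0570 without PC3 NSI replicate 3 or PC3 siFOXA1 replicate 2 or 3) and not for NOP56 (0.19 ± 0.14, adjusted p = 0.409).

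The box H/ACA particles guide pseudouridylation, and their core is DKC1, NHP2, NOP10 and GAR1. DKC1, the pseudouridine synthase dyskerin (chrX:153991017-154005964, plus strand, GRCh37), was at 292, 279 and 290 CPM in PC3 NSI and at 183, 188 and 185 in siFOXA1. It fell there to 64.6% of NSI (-0.63 ± 0.08, adjusted p = 0.000667), and the groups did not overlap. In VCaP DKC1 was at 90.7, 91.2 and 109 CPM in NSI and at 80.1, 87.8 and 98.8 in siFOXA1, and the groups overlapped (-0.13 ± 0.10, adjusted p = 0.324). GAR1 fell in PC3 (-0.44 ± 0.09, adjusted p = 0.00831, and 0.0777 without siFOXA1 replicate 1), and in VCaP it spanned 5.33 to 6.46 CPM in NSI and 5.95 to 6.10 in siFOXA1. NOP10 was at 74.4, 99.6 and 89.3 CPM in PC3 NSI and at 57.7, 81.4 and 60.5 in siFOXA1. Its groups overlapped, and it was not called (-0.40 ± 0.15, adjusted p = 0.0861). It was called under 4 of 15 alternatives, among them the replicate block (adjusted p = 0.00153) and leaving out siFOXA1 replicate 2 (adjusted p = 0.0168). NHP2 was at 86.7, 122 and 95.5 against 86.1, 104 and 70.2 CPM in PC3 and was not called (adjusted p = 0.353). In VCaP it was at 64.5, 64.5 and 77.1 against 56.4, 56.2 and 59.8 and was called lower (-0.26 ± 0.08, adjusted p = 0.0236, lost without siFOXA1 replicate 1 or 2). NOLC1, a chaperone of snoRNPs, was lower in both lines (-0.57 and -0.28), the latter not without VCaP NSI replicate 3 or VCaP siFOXA1 replicate 1 or 2.

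The 3 abundant nucleolar proteins fell in PC3, with a median of -0.43, and 2 of them in VCaP. Of all genes tested 13.9% were called lower in PC3 and 23.3% in VCaP, and of well-expressed ones 20.9% and 35.3%. MYBBP1A, a nucleolar protein that associates with Pol I (chr17:4442192-4458926, minus strand, GRCh37), was at 99.5, 108 and 105 CPM in PC3 NSI and at 61.3, 62.6 and 64.4 in siFOXA1. It was at 74.6, 74.8 and 91.6 in VCaP NSI and at 52.2, 59.3 and 48.6 in siFOXA1. The groups did not overlap in either line, and MYBBP1A fell to 60.3% of NSI in PC3 (-0.73 ± 0.08, adjusted p = 0.000376, the smallest of the set) and to 66.4% in VCaP (-0.59 ± 0.10, adjusted p = 0.00111). Both calls held under all 15 alternatives.

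NPM1, or nucleophosmin, a histone and ribosome chaperone (chr5:170814120-170838141, plus strand, GRCh37), fell in both lines. It went from 946, 1068 and 1061 CPM to 732, 840 and 713 in PC3 (-0.43 ± 0.10, adjusted p = 0.0132), with no overlap. Leaving out NSI replicate 3, or replicate 1 or 3 of siFOXA1, took it past the threshold (adjusted p up to 0.0949). In VCaP it went from 412, 447 and 495 to 318, 316 and 338 (-0.48 ± 0.08, adjusted p = 0.00119), again with no overlap. NCL, or nucleolin, which binds the precursor RNA, fell in PC3 and was not called in VCaP. In PC3 it went from 896, 913 and 883 CPM to 663, 681 and 684 (-0.41 ± 0.08, adjusted p = 0.00533), and in VCaP it was at 288, 309 and 324 in NSI and at 280, 287 and 350 in siFOXA1, with overlapping groups (-0.01 ± 0.10, adjusted p = 0.973). Without siFOXA1 replicate 1 the PC3 fall of NCL missed the threshold (adjusted p = 0.0540). The difference between the lines was 0.39 ± 0.14 for NCL (adjusted p = 0.0589, and 0.00806 with the replicate block).

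**Figure D3:**
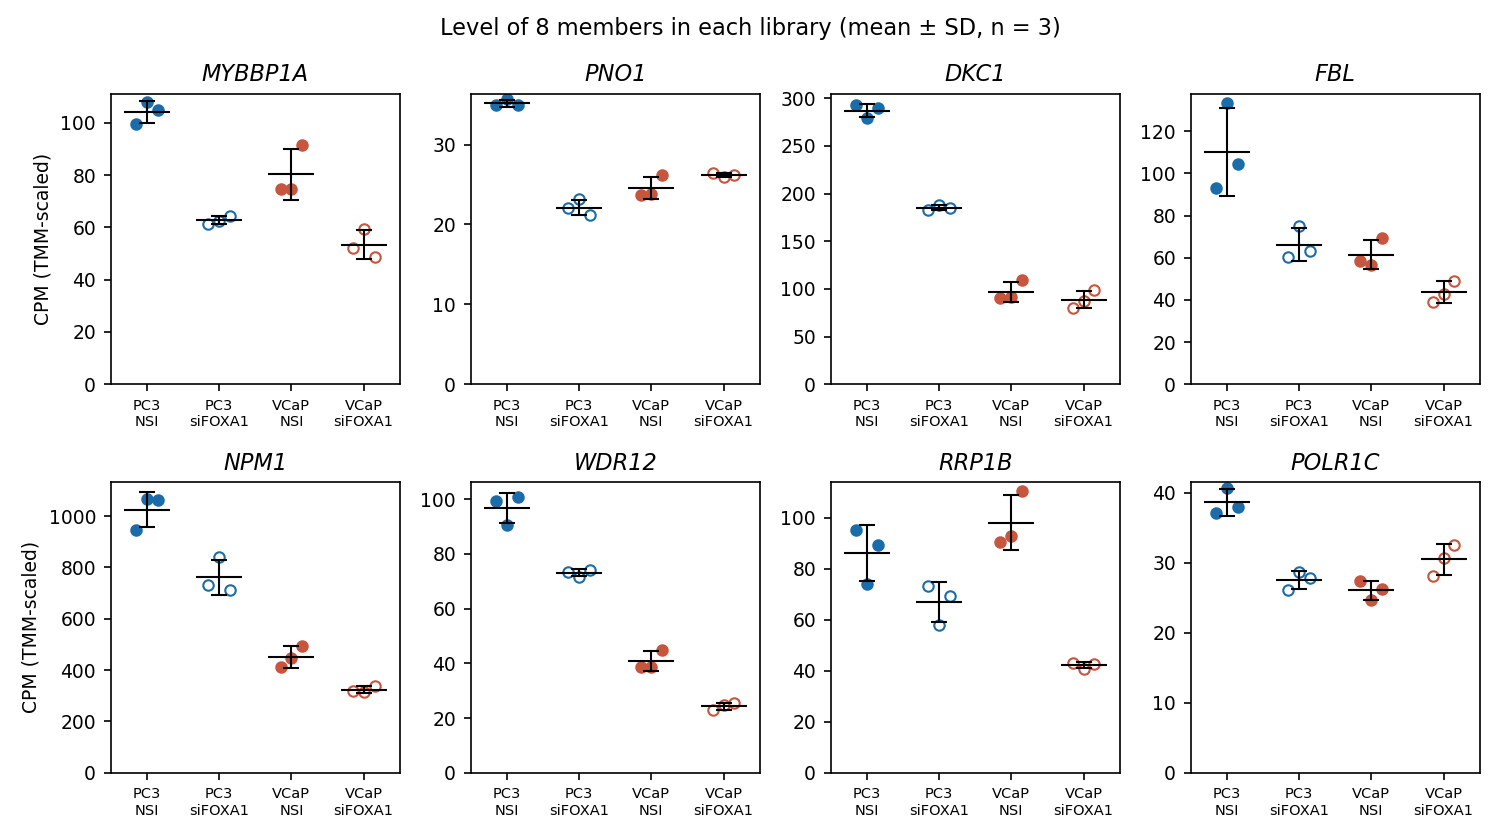
CPM of 8 members in each of the 12 libraries (points; filled for NSI, open for siFOXA1), with the mean and SD of each group of 3. MYBBP1A, FBL, NPM1 and WDR12 are lower with siFOXA1 in both lines without overlap, PNO1 and DKC1 are apart in PC3 and overlap in VCaP, RRP1B separates most in VCaP, and POLR1C lies lower in PC3 and higher in VCaP.

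Of the 21 members of the 40S pathway, 15 were called lower in PC3 (71.4%, against 13.9% of all genes tested and 20.9% of well-expressed ones), with a median of -0.30. In VCaP 2 were (9.52%, against 23.3% and 35.3%), with a median of -0.05. Among 43 other genes of this pathway, 22 were called lower in PC3 (51.2%). In VCaP 10 of them were lower (23.3%) and 6 higher (14.0%, against 22.5% of all genes tested and 23.7% of well-expressed ones). PNO1, which binds the maturing end of the small subunit rRNA (chr2:68384976-68403370, plus strand, GRCh37), was at 34.9, 35.7 and 34.9 CPM in PC3 NSI and at 22.1, 23.1 and 21.2 in siFOXA1. In VCaP it was at 23.7, 23.9 and 26.2 in NSI and at 26.5, 25.9 and 26.2 in siFOXA1. PNO1 thus fell to 62.9% of NSI in PC3 without overlap (-0.67 ± 0.08, adjusted p = 0.000619) and stood at 0.09 ± 0.06 in VCaP with overlap (adjusted p = 0.262). The difference of 0.75 ± 0.10 had the smallest adjusted p of the set, 8.53e-05.

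The helicase DDX10 (chr11:108535752-108811657, plus strand, GRCh37) was at 81.0, 88.9 and 84.6 CPM in PC3 NSI and at 54.8, 58.7 and 60.2 in siFOXA1 (-0.55 ± 0.08, adjusted p = 0.00206). VCaP had it at 40.8, 44.3 and 39.2 in NSI and at 42.7, 42.5 and 47.6 in siFOXA1 (0.10 ± 0.07, adjusted p = 0.290). The PC3 groups were apart and the VCaP groups overlapped. LTV1, an export and maturation factor of the 40S precursor (chr6:144164481-144184949, plus strand, GRCh37), was at 28.7, 29.9 and 27.6 CPM in PC3 NSI and at 20.2, 23.2 and 20.7 in siFOXA1 (-0.43 ± 0.09, adjusted p = 0.00914). In VCaP all siFOXA1 values (15.1, 14.4 and 13.6) were above all NSI values (12.4, 12.8 and 12.6), but the rise missed the threshold (0.19 ± 0.07, adjusted p = 0.0578, and 0.0446 without siFOXA1 replicate 3). The PC3 call of LTV1 was lost without siFOXA1 replicate 1 (adjusted p = 0.0794). The difference between the lines was 0.63 ± 0.11 for DDX10 (adjusted p = 0.000865) and 0.60 ± 0.11 for LTV1 (adjusted p = 0.00119).

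UTP4, a protein of the complex that binds the nascent precursor (chr16:69166418-69202924, plus strand, GRCh37), was at 68.2, 65.7 and 65.5 CPM in PC3 NSI and at 42.8, 45.6 and 46.7 in siFOXA1, a fall to 67.7% without overlap (-0.56 ± 0.08, adjusted p = 0.00147). VCaP had 18.9, 17.9 and 21.3 in NSI and 16.5, 19.2 and 18.0 in siFOXA1, with overlap (-0.12 ± 0.09, adjusted p = 0.313). Its companions in that complex were called in PC3 for WDR43 (-0.47) and UTP15 (-0.28), and not for HEATR1 (-0.24, adjusted p = 0.193, and 0.0226 with the block). UTP15 was at 16.6, 15.7 and 16.3 CPM in PC3 NSI and at 13.7, 12.6 and 13.7 in siFOXA1, and at 20.4, 21.0 and 22.9 against 22.6, 21.2 and 22.6 in VCaP. Its PC3 groups were apart, though the call was lost without any 1 library, and its VCaP groups overlapped.

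The nuclease NOB1, which makes the final cut of the small subunit rRNA, fell in PC3 (-0.50 ± 0.09, adjusted p = 0.00494). NOP14 (-0.50), RRP9, a protein of the U3 snoRNP (-0.49), IMP4 of the MPP10 complex (-0.39), TSR1 (-0.30) and RRP12 (-0.30) fell there too. Of these calls, that of RRP9 was lost without siFOXA1 replicate 1 or 3 and those of IMP4, TSR1 and RRP12 without any 1 of at least 5 libraries (IMP4 kept it without siFOXA1 replicate 2 and TSR1 without NSI replicate 2). BYSL, or bystin, went from 23.4, 29.95 and 24.4 CPM to 19.1, 17.9 and 19.7 in PC3 (-0.46 ± 0.11, adjusted p = 0.0168, and 0.0919 without siFOXA1 replicate 1), without overlap. In VCaP, where it was the lowest member with 811 counts over the 3 NSI libraries, it was at 4.68, 5.36 and 5.20 CPM in NSI and at 3.43, 4.35 and 6.42 in siFOXA1, with overlap (-0.10 ± 0.20, adjusted p = 0.714).

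Only MPHOSPH10, the scaffold of the MPP10 complex (-0.25 in PC3 and -0.21 in VCaP), and the methyltransferase EMG1 (-0.29 and -0.27) were called lower in both lines among the 40S genes. Their PC3 calls held under 4 and 2 of 15 alternatives and were lost without any 1 library, and MPHOSPH10 lost its VCaP call without NSI replicate 1 or 2 or siFOXA1 replicate 2 or 3. Among the 6 members not called in PC3, UTP20 (-0.28), DDX21 (-0.28), NAT10 (-0.19) and HEATR1 (-0.24) were called with the replicate block, with adjusted p of 0.00535, 0.0436, 0.0272 and 0.0226, and UTP20, DDX21 and HEATR1 also without NSI replicate 2. IMP3 was at -0.23 (adjusted p = 0.332, and 0.0428 without siFOXA1 replicate 2). DDX52, a helicase, was the member without a fall: it was at 26.0, 21.7 and 25.2 CPM in PC3 NSI and at 24.6, 24.2 and 24.3 in siFOXA1, with overlap (0.00 ± 0.09, adjusted p = 0.976). In VCaP it was at 76.5, 76.5 and 74.8 in NSI and slightly above, at 79.9, 79.8 and 77.5, in siFOXA1 (0.06 ± 0.05, adjusted p = 0.402).

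In the 60S pathway 13 of 17 genes were called lower in PC3, with a median of -0.42. That is 76.5%, against 13.9% of all genes tested and 20.9% of well-expressed ones. In VCaP 10 of 17 were (58.8%, against 23.3% and 35.3%), with a median of -0.23. RRP1B, a nucleolar protein of 60S precursors (chr21:45079429-45115960, plus strand, GRCh37), had the largest change of the set. It was at 90.6, 92.9 and 110.5 CPM in VCaP NSI and at 43.1, 40.8 and 42.8 in siFOXA1, a fall to 43.1% with no overlap (-1.21 ± 0.08, adjusted p = 3.82e-06). In PC3 it was at 95.3, 74.0 and 89.1 CPM in NSI and at 73.2, 58.0 and 69.4 in siFOXA1. There too each siFOXA1 library was below all NSI libraries, but the fall missed the threshold (-0.37 ± 0.12, adjusted p = 0.0588) and passed it under 5 of 15 alternatives, among them the replicate block (adjusted p = 0.00102) and leaving out NSI replicate 2 (adjusted p = 0.0221). The difference between the lines was -0.87 ± 0.17 (adjusted p = 0.00136) and was called under all 20 alternatives.

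BOP1, PES1 and WDR12 form the PeBoW complex, which is needed to process the large subunit precursor, and its 3 members differed in their calls. WDR12 (chr2:203739505-203776949, minus strand, GRCh37) went from 99.2, 90.4 and 101 CPM to 73.5, 71.6 and 74.0 in PC3 (-0.41 ± 0.08, adjusted p = 0.00756). In VCaP it went from 38.8, 38.6 and 44.9 to 22.8, 24.7 and 25.4 (-0.75 ± 0.08, adjusted p = 4.91e-05). Neither line had overlap. The difference of -0.36 ± 0.12 was called (adjusted p = 0.0474), but was lost without VCaP NSI replicate 1 or 3, without any VCaP siFOXA1 library, or without PC3 siFOXA1 replicate 1 or 3 (adjusted p up to 0.129). BOP1 was called lower in both lines (-0.60 and -0.32), in PC3 not without NSI replicate 3 or siFOXA1 replicate 1 or 3, and in VCaP not without NSI replicate 3 or siFOXA1 replicate 1. PES1 was called in neither (-0.30, adjusted p = 0.0798, and 0.00476 with the block, in PC3, and -0.04 in VCaP).

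NOP2, an rRNA methyltransferase (chr12:6666029-6677857, minus strand, GRCh37), went from 53.5, 61.4 and 53.5 CPM to 39.6, 43.6 and 42.3 in PC3 (-0.42 ± 0.09, adjusted p = 0.0100). In VCaP it went from 29.6, 27.2 and 32.0 to 19.8, 21.4 and 20.3 (-0.53 ± 0.07, adjusted p = 0.000313). GNL3, or nucleostemin, a nucleolar GTPase (chr3:52719936-52728508, plus strand, GRCh37), went from 194, 201 and 197 CPM to 135, 149 and 136 in PC3 (-0.50 ± 0.08, adjusted p = 0.00305) and from 193, 188 and 184 to 142, 144 and 148 in VCaP (-0.38 ± 0.06, adjusted p = 0.000600). Both genes were apart between groups in both lines, and their differences between lines, -0.12 ± 0.12 and 0.10 ± 0.10, were not called. The NOP2 call in PC3 was lost without siFOXA1 replicate 1 (adjusted p = 0.0893).

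Among the other 60S genes, MRTO4, a placeholder for the ribosomal stalk (-0.63 and -0.23), BRIX1 (-0.43 and -0.34), the helicase DDX56 (-0.42 and -0.25) and GRWD1, a chaperone of ribosomal protein L3 (-0.30 and -0.28), were called lower in both lines. NOP16 (-0.53), PPAN (-0.49), NIP7 (-0.46), the helicase DDX18 (-0.45) and the GTPase GNL2 (-0.34) were called lower in PC3 and not in VCaP, where they ranged from -0.21 to 0.04. Without siFOXA1 replicate 1, 7 of these 9 PC3 calls were lost, those of MRTO4 and NIP7 being kept, and without siFOXA1 replicate 3, 5 were (BRIX1, GRWD1, NOP16, PPAN and GNL2). Without NSI replicate 3 those of BRIX1, DDX18, GNL2, GRWD1 and PPAN were lost, without NSI replicate 2 those of GNL2, GRWD1 and PPAN, and without NSI replicate 1 those of GNL2 and GRWD1. PPAN was called lower in VCaP without NSI replicate 2 (adjusted p = 0.0365). MRTO4 lost its VCaP call without NSI replicate 3 or any siFOXA1 library. EBNA1BP2 was called in VCaP (-0.18, adjusted p = 0.0486, kept only without NSI replicate 2 among left-out libraries) and in PC3 only with the block (-0.18, adjusted p = 0.217, and 0.0378 with it). RRS1, which helps load the 5S particle, was at -0.32 in PC3 (adjusted p = 0.0911, 0.00284 with the block, and 0.0338 without siFOXA1 replicate 2) and at -0.21 in VCaP (adjusted p = 0.133, 0.0402 with the block, and 0.0264 without siFOXA1 replicate 3).

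Across roles, 15 members were called lower in both lines, where 6.48% of the 19282 genes tested in both were. Taken singly, PC3 had 75.0% of the members called lower and VCaP 33.9%, the latter near the 35.3% of well-expressed genes. Whether more members are shared than these shares alone give was not tested. A further 26 were called lower in PC3 and not called in VCaP, 4 in VCaP and not in PC3, 1 was opposite and 10 were called in neither. The estimate was more negative in PC3 for 50 of 56 by the separate fits. By the fit of the difference between lines, 8 of 56 members were more negative in VCaP. That held for 47.0% of all genes tested and 45.1% of well-expressed protein-coding genes. A call in one line and none in the other does not show a difference, and the difference itself was called for 16 members: 14 were less negative, or positive, in VCaP (25.0% of the set, against 11.1% of the 30450 genes tested and 17.6% of well-expressed protein-coding genes) and 2, RRP1B and WDR12, were more negative there (3.57%, against 11.1% and 16.1%). The 14 were POLR1C, TCOF1, NOP58, DKC1, GAR1, UTP4, NOP14, DDX10, LTV1, PNO1, NOP16, DDX18, GNL2 and NIP7. The median difference of the members was 0.27, and of all genes tested 0.05.

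The count of 14 was 6 to 9 without PC3 NSI replicate 3, any PC3 siFOXA1 library, VCaP NSI replicate 1 or 2, or VCaP siFOXA1 replicate 2 or 3. Calls over all genes dropped too, from 3379 more positive in the main fit to between 2541 and 2924 in these settings. With the replicate block it was 26 (background 15%), and the count of more negative members was 2 (background 14%).

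**Figure D4:**
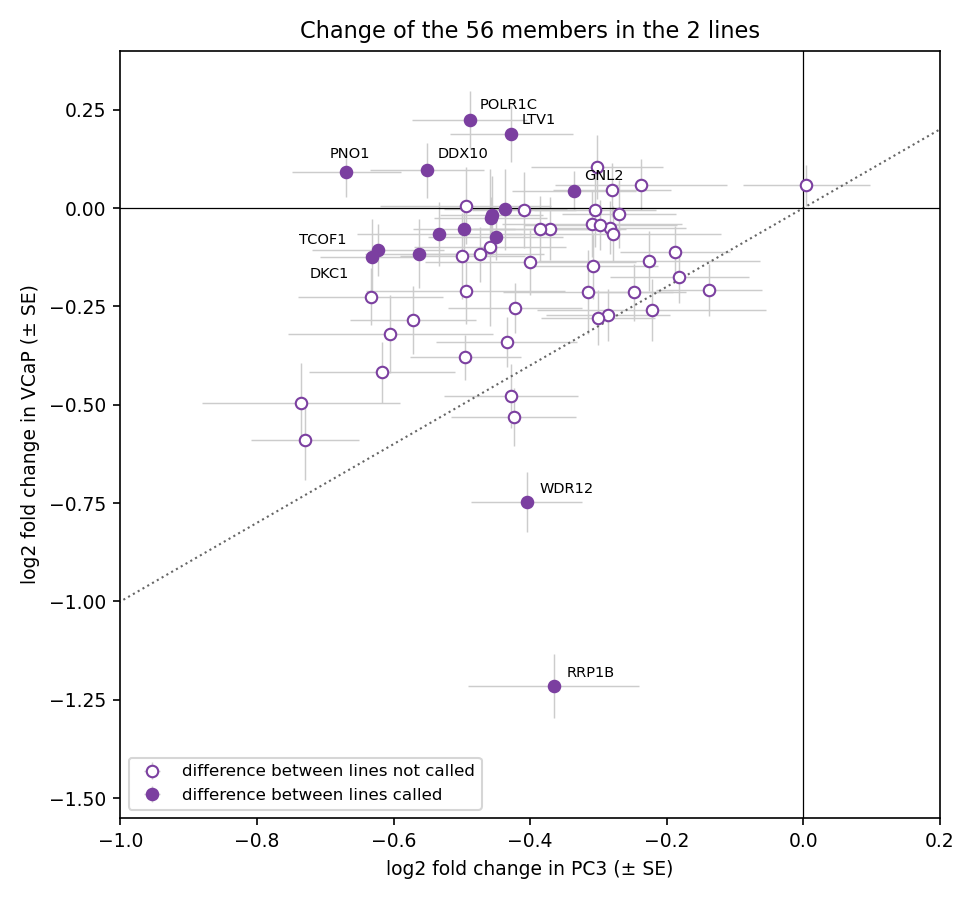
The log2 fold change of each member in PC3 (x axis) against VCaP (y axis), with standard errors, where filled points have a called difference between the lines and the dotted line marks equal change. Most points lie above the line, 50 of 56 by the separate fits, and RRP1B and WDR12 lie well below it. By the fit of the difference, 8 members were more negative in VCaP, as were 47.0% of all genes tested.

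Levels of different genes were compared per length, as TPM, counts per kilobase scaled to a common total, computed from the counts and the deposited gene lengths. In PC3 NSI the highest members were NPM1 (695 TPM, range 629 to 741), NCL (393, range 385 to 399) and NOP10 (280, range 233 to 314), whose ranges do not overlap each other, though that of NOP10 overlaps those of the next, DDX21 (163 to 256) and NHP2 (174 to 245). The lowest were UTP15 (5.61, range 5.36 to 5.82) and DDX52 (6.75, range 5.96 to 7.21), the latter overlapping UTP20 (5.96 to 7.40). In VCaP NSI the highest were NPM1 (145, range 133 to 159), GNL3 (74.2, range 65.4 to 81.4) and NHP2 (66.4, range 62.6 to 69.0), and the ranges of the latter pair overlap each other and that of NCL (59.9 to 70.8). The range of NHP2 also overlaps that of NOP10 (52.7 to 64.0). The lowest were BYSL (2.11, range 1.94 to 2.44) and UTP15 (3.53, range 3.36 to 3.81), the latter overlapping UTP4 (3.52 to 3.66), NIP7 (3.64 to 3.67) and GAR1 (3.55 to 4.73). The NSI level of the lines was not tested, since line and kit coincide.

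**Figure D5:**
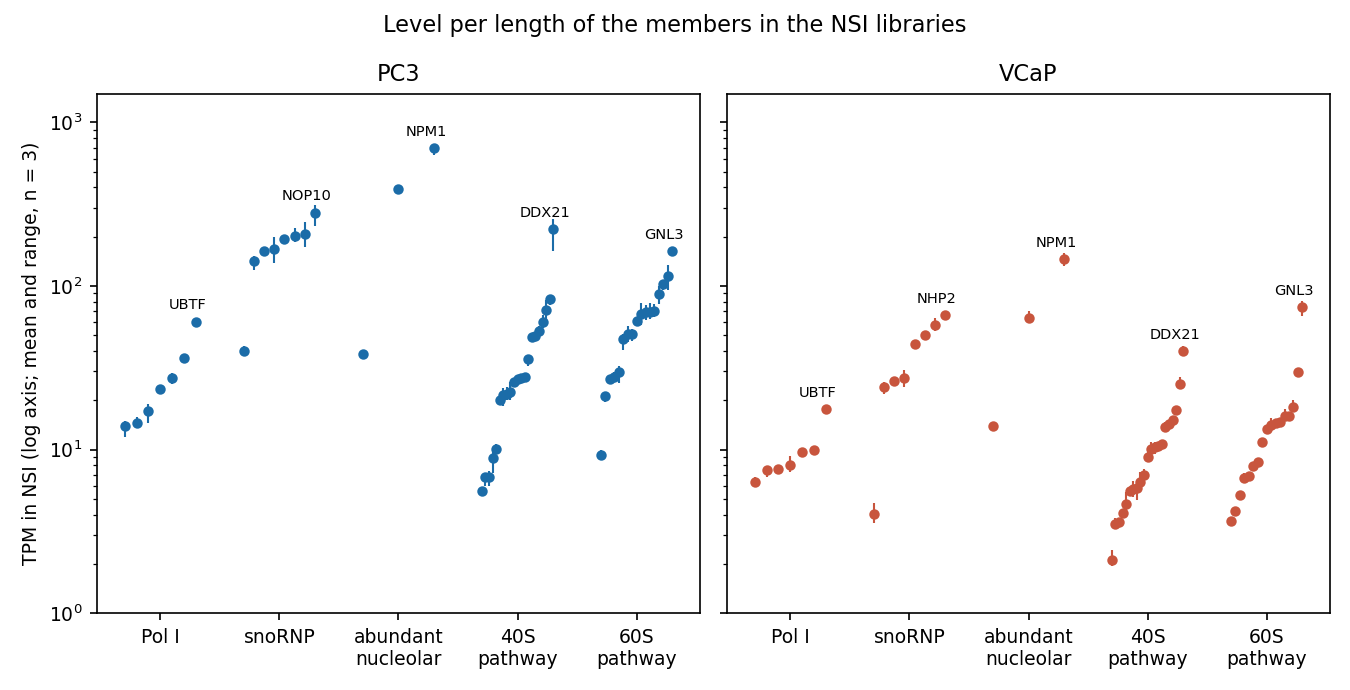
TPM of each member in the NSI libraries of PC3 (left) and VCaP (right) on a log axis, by role, as mean and range of 3 libraries, with the highest gene of each role named. NPM1 is highest in both lines, at 695 and 145 TPM.

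A list of 130 other genes of the same pathway, also chosen with earlier results of these data known, was counted beside them. All were tested in both lines. In PC3 63 of these were called lower (48.5%) and 1 higher, with a median of -0.33, against 13.9% of all genes tested and 20.9% of well-expressed ones called lower. With the replicate block the counts were 105 and 2, against 23.1% of all genes tested then called lower. In VCaP 44 were called lower (33.8%, against 23.3% and 35.3%) and 13 higher (10.0%, against 22.5% and 23.7%), with a median of -0.10, so the falls there are near the background of genes of like level. The PC3 genes with the smallest adjusted p were RIOK1, a kinase of late 40S maturation (-0.57 ± 0.08, adjusted p = 0.00113), NOL11 (-0.58 ± 0.08, adjusted p = 0.00141) and RPF2, which helps load the 5S particle (-0.62 ± 0.09, adjusted p = 0.00144). The 1 gene that rose was EFL1, a GTPase that acts on late cytoplasmic 60S particles (26.9, 26.4 and 26.2 CPM in NSI and 35.8, 31.0 and 34.3 in siFOXA1, 0.35 ± 0.09, adjusted p = 0.0182), and it was higher in VCaP as well (0.19 ± 0.06, adjusted p = 0.0319).

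In VCaP the other pathway genes with the smallest adjusted p among falls were SPATA5, an ATPase of 60S maturation, which went from 29.8, 33.1 and 31.1 CPM to 19.6, 20.0 and 19.4 (-0.67 ± 0.06, adjusted p = 2.60e-05), SNU13, a protein of box C/D snoRNPs and the spliceosome (-0.72 ± 0.07, adjusted p = 3.12e-05), and NOL10 (-0.66 ± 0.07, adjusted p = 6.48e-05). Among rises they were RIOK3 (28.2, 28.03 and 27.3 against 36.7, 35.2 and 40.0 CPM, 0.42 ± 0.06, adjusted p = 0.000520), the exosome subunit EXOSC7 (0.29 ± 0.06, adjusted p = 0.00204) and ABT1 (0.32 ± 0.07, adjusted p = 0.00298). EXOSC7 and ABT1 were called in opposite directions in PC3 (-0.50 and -0.47). The difference between lines was called for 36 of the 130. In VCaP 35 were more positive (26.9%, against 11.1% of all genes tested and 17.6% of well-expressed ones). The remaining 1 was more negative there (0.769%, against 11.1% and 16.1%).

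Some counts are shared with other genes. PPAN shares 83.2% of its exon bases with the read-through gene PPAN-P2RY11 on the same strand, NOP2 43.1% and LTV1 34.8% with overlapping transcripts, and a fragment in both was divided between them. In PC3, where strand was ignored, reads of IMP3, NHP2 and EMG1 could not be told from those of genes on the opposite strand, which cover 73.0%, 43.8% and 30.7% of their exon bases. Other members have smaller such overlaps, among them BRIX1 (25.0%), NOB1 (24.7%), HEATR1 (23.9%), TSR1 (21.4%), PNO1 (12.2%) and POLR1C (10.5%). The part of these overlaps in the differences between lines was not tested. Members with processed copies in the genome, NPM1 with 6 annotated pseudogenes among them, share multi-mapped fragments with them.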

How the data were processed

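The authors deposited 1 table per library of estimated counts per gene, not normalized. Per the file headers, they were made with featureCounts 2.0.0 on GRCh37 and the GENCODE release 28 basic annotation, for pairs with both ends mapped, dividing multi-mapped and overlapping fragments. The submitters' processing notes name STAR 2.7.3a.

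Counts were rounded. Each line was fitted on its 6 libraries with edgeR 4.0.16 (TMM, filterByExpr, two-sided quasi-likelihood test, Benjamini-Hochberg adjustment over all genes tested), and the difference between lines as the interaction over 12 libraries. The fits were also run on simulated independent libraries, with a spread below that of the PC3 fit and of the fit over 12 libraries. That run does not show how the fits do at those spreads. Members, lists and tests were chosen with earlier results of these data known. Values by library are given for members leading by adjusted p in either line, direction or the interaction, the largest falls shared by both lines, opposite calls, and the highest and lowest TPM. Alternatives were other scalings and filters, DESeq2 1.42.0, each library left out, a minimum change and the replicate block. Same-numbered PC3 libraries deviated together (r = 0.41, 0.57 and 0.21), and those of VCaP did not throughout (0.09, 0.04 and 0.35). In PC3, however, siFOXA1 replicate 3 went more with NSI replicate 1 (r = 0.35), so replicates 1 and 3 are not told apart as pairs. Some marker genes are not reported here.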

Additional observations from a re-analysis of the deposited data

Results flagged for a closer look

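The response to siFOXA1 differed between the lines by the test of the difference itself (edgeR's interaction term, adjusted p under 0.05) for 16 members, given here as the VCaP minus the PC3 log2 fold change. Of Pol I genes these were POLR1C (0.70) and TCOF1 (0.50). Of snoRNP genes they were NOP58 (0.42), DKC1 (0.49) and GAR1 (0.42). Of the 40S pathway they were UTP4 (0.43), NOP14 (0.43), DDX10 (0.63), LTV1 (0.60) and PNO1 (0.75). Of the 60S pathway they were NOP16 (0.45), DDX18 (0.36), GNL2 (0.37) and NIP7 (0.42) on the positive side and WDR12 (-0.36) and RRP1B (-0.87) on the negative side. The calls of POLR1C, DDX10, LTV1, PNO1 and RRP1B held under all 20 alternatives, and the others were lost under at least 1.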

How the results depend on the processing

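Calls held under every alternative for 17 of 42 members in PC3 (15 alternatives), 11 of 20 in VCaP (15) and 5 of 16 for the difference between lines (20). With 1 library left out, the members called lower numbered 17 to 37 in PC3, those called higher in VCaP 0 to 1, and those more positive or more negative in VCaP 6 to 19 and 1 to 2. A minimum log2 change of 0.5 left 12 lower in PC3, 4 lower and 0 higher in VCaP. The fit of all 12 libraries called 11 lower in VCaP (3975 of all genes, against 5345 in the main fit). Members called higher in VCaP numbered 2 with upper-quartile factors or a filter of 1 CPM in 3 libraries, and 0 with DESeq2 or no filter. For the difference between lines, library size alone gave 8 more positive members, where 2643 of all genes were more positive, against 3379 in the main fit. No filter gave 1 more negative member, and the replicate block gave 26 more positive members. The replicate block gave 52 members lower in PC3, 20 lower and 1 higher in VCaP, and 2 more negative ones.

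Sign changes are listed here only for members with values by library. Some of their values near 0 changed sign and none of these was called. Other members crossed 0 under the alternatives too. Among them in VCaP were RRP9 (-0.090 to 0.095), TSR1 (-0.082 to 0.087), NIP7 (-0.096 to 0.059) and NOP58 (-0.056 to 0.022). IMP3 did so in the difference between lines (-0.064 to 0.189). In VCaP, NCL was 0.043 with upper-quartile factors, 0.022 with the 1 CPM filter or in the fit of 12 libraries, and -0.114 to 0.047 with 1 library left out, where BYSL spanned -0.383 to 0.079 and UTP15 -0.0051 to 0.095. In PC3, DDX52 spanned -0.026 to 0.073 with 1 library left out. Of differences between lines, DDX52 was -0.052 with library size alone, -0.0067 with the 1 CPM filter and -0.056 to 0.076 with 1 library left out, NHP2 then spanned -0.233 to 0.048 and NPM1 -0.149 to 0.014. The cause was not tested. Library size alone moved the median of all PC3 genes by 0.09, from 3669 lower and 3675 higher calls to 2562 and 4607, upper-quartile factors to 2916 and 4266, and 30 and 32 members were then called lower. Upper-quartile factors gave 4715 lower and 5854 higher genes in VCaP, against 5345 and 5155. The member with the fewest counts was BYSL in VCaP, with 811 over the 3 NSI libraries.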
